A study of Rattus norvegicus with 16 samples.

Results

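This account follows 8 rat genes of the response to low oxygen, centred on adrenomedullin (Adm), in liver after sepsis under isoflurane or propofol. The list was set by symbol and held 9 genes, the HIF subunits Hif1a and Epas1, the oxygen-sensing enzymes Egln1 and Egln3, the secreted factors Adm and Vegfa, the glucose transporter Slc2a1, and Ankrd37 and Bnip3. Of these, 8 were among the 17055 gene symbols of the count tables, and Egln1 is not analysed here. All 8 had enough reads to be tested in every comparison.

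Liver RNA was sequenced from male Sprague-Dawley rats aged 10 weeks, all of them ventilated with pure oxygen under anesthesia. In the Isoflurane-Sepsis group (libraries 1 to 4) and the Isoflurane-Control group (libraries 5 to 8) anesthesia was started and kept up with isoflurane. In the Propofol-Sepsis group (libraries 9 to 12) and the Propofol-Control group (libraries 13 to 16) it was started with ketamine and xylazine and kept up with propofol, so the anesthetics cannot be told apart from the drugs that started them. Sepsis was made by cecal ligation and puncture (CLP), in which the cecum is tied off and pierced so that gut bacteria leak into the abdomen, while in control rats the cecum was brought out and put back. Livers were taken 8 h after the abdomen was opened. Each library was a pool of 3 rats, giving 4 libraries and 12 rats per group, and p-values therefore measure the spread between pools and not between rats.

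Cells read a fall in oxygen through the hypoxia-inducible factors (HIF). The alpha subunits, encoded by Hif1a and Epas1, are made all the time, and prolyl hydroxylases such as Egln3 mark them for destruction while oxygen is plentiful. When oxygen falls the subunits persist, pair with Arnt and bind short DNA words at their target genes, so HIF activity is set mainly at the protein and a target's mRNA is its usual readout. Among the targets are Adm, a peptide that relaxes blood vessels and tightens the endothelium, Vegfa, a growth factor for endothelium, Slc2a1, which carries glucose into cells, Bnip3, which takes part in the removal of mitochondria, and Egln3 and Ankrd37, which are widely used as markers of HIF activity. Inflammation also acts on HIF subunits and on several of these targets, and in the liver oxygen normally falls along the path of the blood through the lobule.

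The core word bound by HIF has the letters ACGTG or GCGTG, and the upstream DNA of members is shown to make the list concrete. In RefSeq sequence of build GRCr8, the 250 bases before the start of each gene were searched on both strands, with overlapping matches counted separately. At least 1 match stood in 4 of the 8 members, against 36.7% of all 33469 promoters searched. Hif1a held 3 matches, and Ankrd37, Bnip3 and Slc2a1 held 4 each. Epas1, Adm, both entries of Vegfa and Egln3 held none in this window, which says nothing of sites elsewhere. The 3 promoters with 4 matches and that of Adm, the gene the list is named for, read as follows from 5′ to 3′, with matches in capitals, also where the word lies on the other strand and reads CACGT or CACGC.
Ankrd37, chr16:53001257-53001506, plus strand: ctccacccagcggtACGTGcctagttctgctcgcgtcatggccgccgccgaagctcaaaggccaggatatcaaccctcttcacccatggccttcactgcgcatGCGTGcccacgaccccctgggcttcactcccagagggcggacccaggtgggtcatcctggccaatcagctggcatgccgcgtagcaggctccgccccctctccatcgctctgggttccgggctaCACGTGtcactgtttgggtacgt
Bnip3, chr1:203154963-203155212, minus strand: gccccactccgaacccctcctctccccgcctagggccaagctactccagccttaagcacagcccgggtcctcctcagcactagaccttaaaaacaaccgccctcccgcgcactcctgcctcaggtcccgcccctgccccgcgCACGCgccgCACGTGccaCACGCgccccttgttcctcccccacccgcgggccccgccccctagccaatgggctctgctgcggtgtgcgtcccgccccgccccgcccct
Slc2a1, chr5:138002272-138002521, plus strand: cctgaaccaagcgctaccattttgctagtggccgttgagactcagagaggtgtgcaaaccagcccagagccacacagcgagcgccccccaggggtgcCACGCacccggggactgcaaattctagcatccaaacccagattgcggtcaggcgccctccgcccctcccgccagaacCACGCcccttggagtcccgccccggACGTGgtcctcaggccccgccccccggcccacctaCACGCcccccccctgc
Adm, chr1:174179950-174180199, plus strand: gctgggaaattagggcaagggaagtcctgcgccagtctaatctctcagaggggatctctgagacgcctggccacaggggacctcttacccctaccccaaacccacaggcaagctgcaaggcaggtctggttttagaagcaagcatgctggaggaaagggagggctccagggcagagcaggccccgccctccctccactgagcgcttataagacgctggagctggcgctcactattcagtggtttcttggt
In Ankrd37 and Bnip3, and also in Hif1a, whose sequence is not printed, the word CACGTG reads alike on both strands and gives 2 of the matches. The match nearest to a start lies 16 bases before that of Slc2a1.

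Between 14199422 and 49937173 reads per library fell on genes. Values below are CPM, read counts scaled to a common library size after TMM adjustment, and compare libraries for a gene rather than genes with each other. The 10 hepatocyte markers summed to 108051 CPM or more in every library, and none of them was at 0. The 10 neutrophil and monocyte markers summed to 151 to 203 CPM in Isoflurane-Control, 1259 to 2078 CPM in Isoflurane-Sepsis, 390 to 648 CPM in Propofol-Control and 1159 to 3282 CPM in Propofol-Sepsis, with Mpo at 0 in 11 libraries and the other 9 markers above 0 in all 16. Most of each sum was the single gene Lcn2, which averaged 159, 1460, 474 and 2247 CPM in the same order of groups. Of those tested, 6 of 8 neutrophil and monocyte markers were called higher with sepsis under isoflurane and 5 of 9 under propofol. The 9 Kupffer cell and macrophage markers had 6 called higher and 1 lower under isoflurane and 2 higher and 1 lower under propofol, and the 7 stellate cell markers 4 higher and 1 lower, and 1 higher and 1 lower. Of the hepatocyte markers 4 of 10 were called lower and 1 higher under isoflurane, with 3 lower and 1 higher under propofol. The share of reads outside genes was 23.1% to 25.4% in Isoflurane-Sepsis and 22.4% to 22.95% in Isoflurane-Control, and 22.2% to 23.3% in Propofol-Sepsis and 21.6% to 22.1% in Propofol-Control, without overlap under either anesthetic. Among all genes 25.7% were called higher and 24.4% lower under isoflurane, and 20.4% and 21.7% under propofol. The neutrophil and monocyte sums did not overlap between sepsis and control under either anesthetic. Those of the hepatocyte, Kupffer cell and macrophage, and stellate cell markers overlapped under propofol, and those of Kupffer cells and macrophages also under isoflurane. The part of any of these values in the results was not tested. In bulk liver, more cells of a type and more RNA per cell cannot be told apart.

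The first comparison asked how sepsis changed these genes under isoflurane. All 8 members were called higher in Isoflurane-Sepsis than in Isoflurane-Control, with log2 fold changes from 0.46 (Epas1) to 4.13 (Egln3) and a median of 1.79. A gene is called here at an adjusted p below 0.05 in edgeR's quasi-likelihood test with Benjamini-Hochberg adjustment over all 10361 genes tested, of which 50.0% were called, 25.7% higher and 24.4% lower. Across all those genes the median log2 fold change was 0.006. For all 8 members every septic library stood above every control library, as was so for 24.3% of all genes tested. Under propofol 6 of the 8 were called higher, with a median log2 fold change of 0.92 over the 8, against 42.1% of 10348 genes called, 20.4% higher and 21.7% lower, and a median of -0.002. The 2 others were Hif1a and Vegfa.

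**Figure D1:**
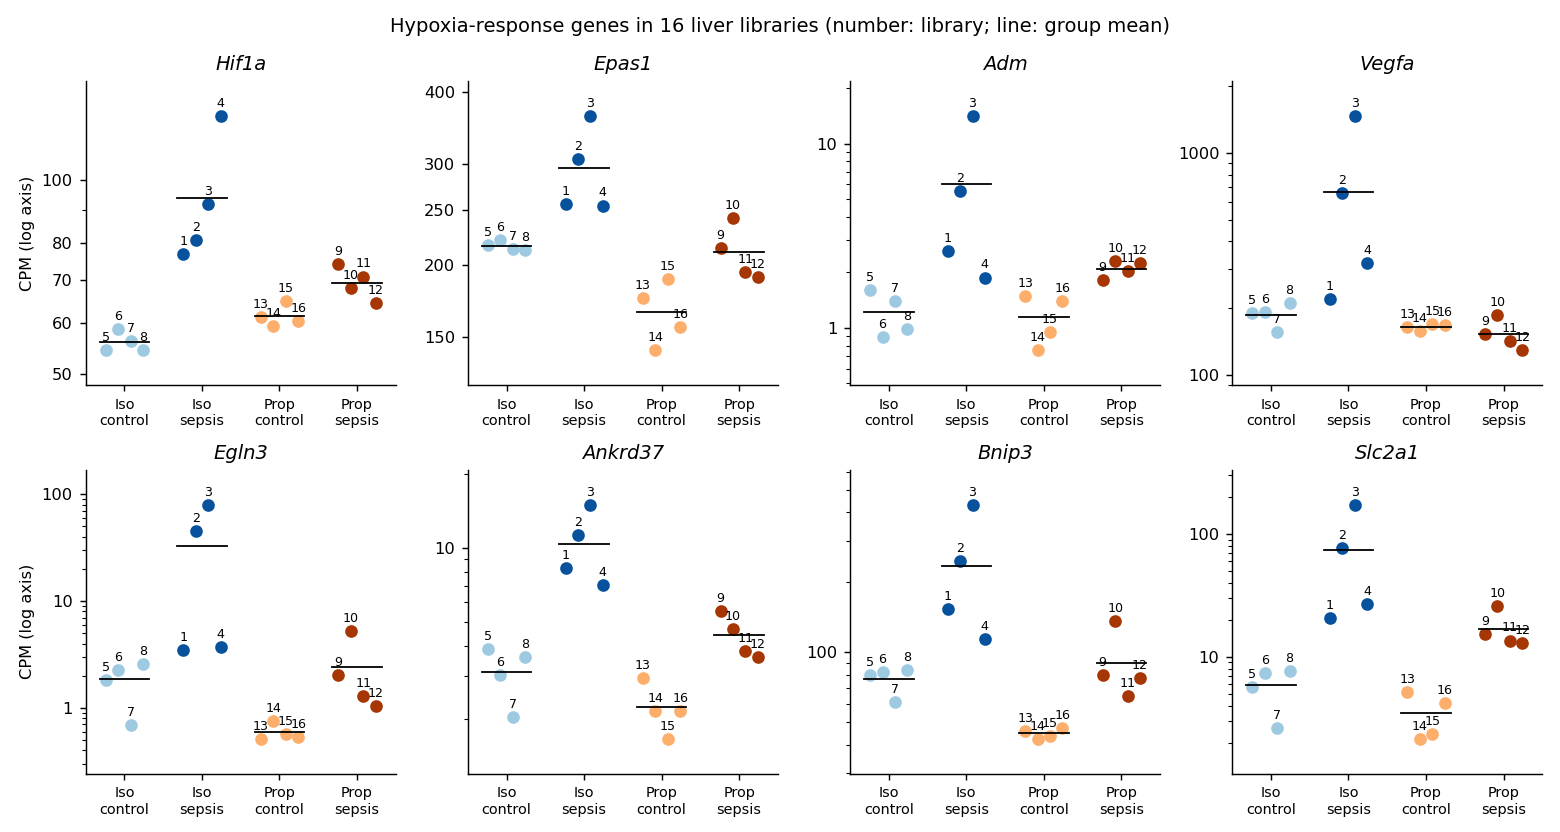
CPM on a log axis for the 8 members in each of the 16 libraries, with a point per library, its number beside it and a line at the mean of each group of 4. Isoflurane-Sepsis lies above Isoflurane-Control without overlap in every panel, and libraries 3 and 2 stand highest in all panels but that of Hif1a, where library 4 leads at 126 CPM.

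The mRNAs of the HIF alpha subunits moved least under isoflurane. Hif1a stood at 76.9, 80.6, 91.8 and 126 CPM in Isoflurane-Sepsis libraries 1 to 4, and at 54.5, 58.7, 56.2 and 54.5 CPM in Isoflurane-Control libraries 5 to 8. The rise under isoflurane was 0.75 on the log2 scale (SE 0.147, adjusted p = 0.00318), with library 4 well apart from the others. In Propofol-Sepsis libraries 9 to 12 Hif1a stood at 74.0, 67.9, 70.9 and 64.5 CPM, and in Propofol-Control libraries 13 to 16 at 61.3, 59.3, 64.8 and 60.4 CPM. The lowest septic library lay just under the highest control library, and the log2 fold change of 0.17 (SE 0.0613, adjusted p = 0.0512) missed the threshold narrowly. It passed with RLE size factors (adjusted p = 0.0484), with DESeq2 (0.0438) and without library 10 (0.0499) or library 12 (0.0394).

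Epas1, which encodes the alpha subunit of HIF-2 and is prominent in endothelium and hepatocytes, stood at 256, 306, 364 and 254 CPM in Isoflurane-Sepsis and at 217, 221, 213 and 212 CPM in Isoflurane-Control. The control pools were almost level, and the rise was 0.46 (SE 0.124, adjusted p = 0.0143). Under propofol the values were 215, 242, 195 and 191 CPM with sepsis and 175, 142, 189 and 156 CPM without, a rise of 0.34 (SE 0.104, adjusted p = 0.0259) in which the lowest septic library only just cleared the highest control. That call was lost with scaling by library totals alone (adjusted p = 0.0610) and without library 9 (0.0575), 14 (0.0705) or 16 (0.0645).

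Egln3, the hydroxylase that is itself induced by HIF, had the largest fold change of the 8 under isoflurane. It stood at 3.49, 45.2, 79.5 and 3.75 CPM in Isoflurane-Sepsis and at 1.83, 2.28, 0.697 and 2.58 CPM in Isoflurane-Control. Libraries 2 and 3 stood far above the other septic pools, which lay close to their controls. The log2 fold change was 4.13 (SE 1.04, adjusted p = 0.0104). It was 3.18 without library 3 (adjusted p = 0.0237), 3.01 with limma-voom (adjusted p = 0.111) and 0.92 without libraries 2 and 3 (adjusted p = 0.109), so the call did not hold in the last 2 fits. Under propofol Egln3 stood at 2.03, 5.22, 1.28 and 1.03 CPM with sepsis and at 0.515, 0.757, 0.571 and 0.528 CPM without, from 8 to 13 reads in each control library. No libraries overlapped, and the rise was 1.99 (SE 0.523, adjusted p = 0.0131), or 1.24 without library 10 (adjusted p = 0.00947), and was not called with limma-voom (adjusted p = 0.0515) or in a fit of all 16 libraries (0.191).

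Adm was a gene of low level, with 13 to 272 reads per library. In Isoflurane-Sepsis it stood at 2.59, 5.54, 14.1 and 1.87 CPM, and in Isoflurane-Control at 1.60, 0.891, 1.39 and 0.979 CPM. All septic pools were above all controls, but library 4 barely so and library 3 by a wide margin. The rise was 2.35 (SE 0.623, adjusted p = 0.0128), and it was 1.46 without library 3 (adjusted p = 0.0167) and 0.90 without libraries 2 and 3 (adjusted p = 0.0433). Under propofol the septic pools lay close together at 1.81, 2.29, 2.03 and 2.25 CPM, above controls at 1.48, 0.757, 0.952 and 1.39 CPM. That rise was 0.87 (SE 0.234, adjusted p = 0.0144), and it was not called in the fit of all 16 libraries (adjusted p = 0.188). Adm is among the genes that the study picked out from these same libraries, so its direction is not independent evidence.

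Vegfa, the other secreted factor, parted from Adm under propofol. It stood at 220, 663, 1468 and 317 CPM in Isoflurane-Sepsis and at 190, 191, 155 and 210 CPM in Isoflurane-Control, with library 1 only slightly above the highest control. The rise of 1.85 (SE 0.528, adjusted p = 0.0173) was 1.10 without library 3 (adjusted p = 0.0255) and 0.52 without libraries 2 and 3 (adjusted p = 0.0423), and it was not called without control library 7 (1.77, adjusted p = 0.0522). In Propofol-Sepsis Vegfa stood at 152, 186, 142 and 129 CPM, around and below the 164, 158, 169 and 168 CPM of Propofol-Control. The log2 fold change was -0.12 with a 95% interval of -0.35 to 0.11 (adjusted p = 0.362), and without library 10, the highest septic pool, it was -0.22 and was called lower (adjusted p = 0.0256).

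The targets in metabolism and mitochondria rose under both anesthetics. Slc2a1 stood at 20.6, 77.1, 173 and 26.7 CPM in Isoflurane-Sepsis and at 5.69, 7.43, 2.65 and 7.62 CPM in Isoflurane-Control. Each septic pool was well clear of the controls, and the rise was 3.67 (SE 0.711, adjusted p = 0.00301), or 2.80 without library 3 (adjusted p = 0.00319) and 1.98 without libraries 2 and 3 (adjusted p = 0.00463). Under propofol Slc2a1 stood at 15.4, 26, 13.6 and 12.9 CPM with sepsis and at 5.21, 2.15, 2.33 and 4.18 CPM without. This rise of 2.29 (SE 0.315, adjusted p = 4.4e-04) had the smallest adjusted p of the 8 members in that comparison.

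Bnip3 stood at 154, 246, 432 and 113 CPM in Isoflurane-Sepsis and at 79.4, 82.0, 60.9 and 83.7 CPM in Isoflurane-Control, a rise of 1.64 (SE 0.377, adjusted p = 0.00678), or 0.79 without libraries 2 and 3 (adjusted p = 0.00826). Under propofol it stood at 79.9, 136, 64.4 and 77.1 CPM with sepsis and at 45.6, 42.4, 43.5 and 47.1 CPM without. The propofol controls were almost level and the septic pools were all above them, with a rise of 1.00 (SE 0.2, adjusted p = 0.00341).

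Ankrd37, an ankyrin repeat gene with the smallest adjusted p of the 8 under isoflurane, stood at 8.28, 11.3, 15.0 and 7.07 CPM in Isoflurane-Sepsis and at 3.86, 3.02, 2.04 and 3.60 CPM in Isoflurane-Control. Its septic pools were the most even among the 6 targets, with a coefficient of variation of 34.0%, and the rise was 1.73 (SE 0.277, adjusted p = 0.00118), with 1.27 left without libraries 2 and 3 (adjusted p = 0.00564). Under propofol it stood at 5.53, 4.68, 3.79 and 3.59 CPM with sepsis and at 2.96, 2.15, 1.67 and 2.16 CPM without, a rise of 0.97 (SE 0.213, adjusted p = 0.00525).

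The septic pools under isoflurane were alike in whether the members rose but not in how far. Library 3 held the highest level of 7 of the 8 members and library 2 the second highest of the same 7, the exception being Hif1a, for which the order from the top was libraries 4, 3, 2 and 1. The lowest place was shared, with library 1 lowest for Hif1a, Vegfa, Egln3 and Slc2a1 and library 4 lowest for Epas1, Adm, Ankrd37 and Bnip3. Among all genes tested, 23.8% were highest in library 3 and 11% had library 3 first and library 2 second, and among genes called higher with sepsis these shares were 35.1% and 15.1%. The libraries are the same for every gene, so these counts are descriptions of 4 pools, and members are not replicates of one another.

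**Figure D2:**
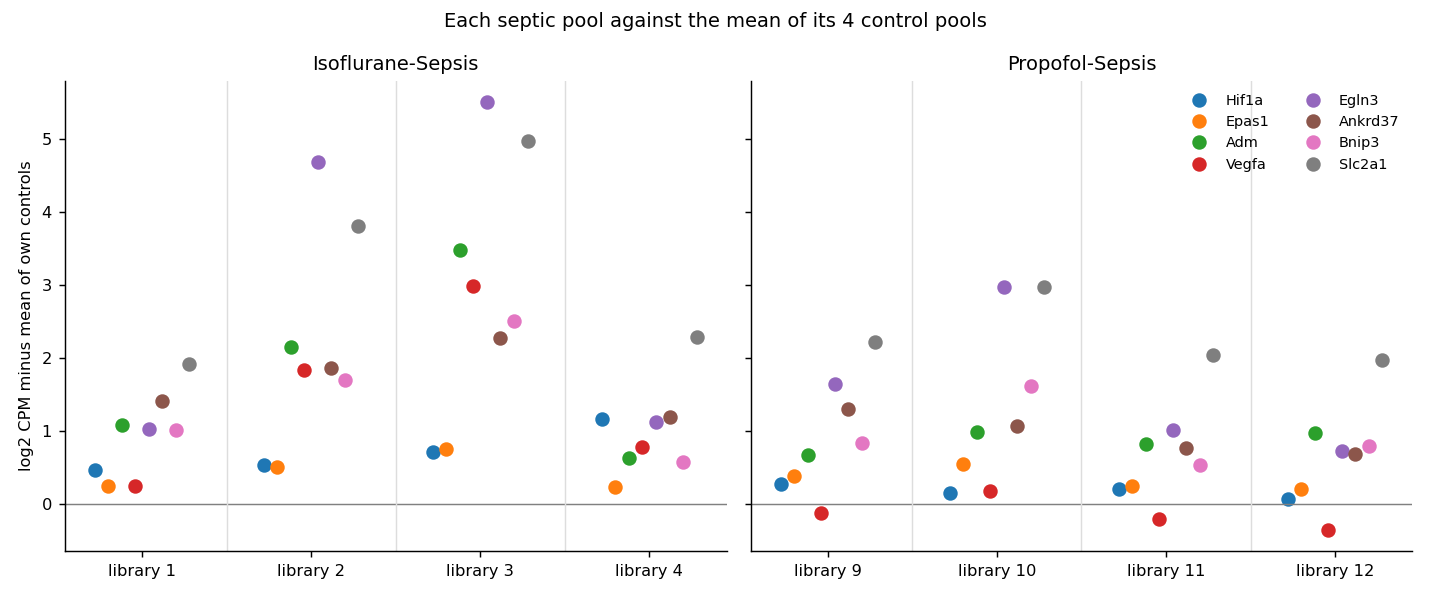
Log2 CPM of each member in each septic library minus the mean log2 CPM of the 4 control libraries of the same anesthetic, with Isoflurane-Sepsis on the left and Propofol-Sepsis on the right and a color per gene. Library 3 spreads from 0.71 for Hif1a to 5.50 for Egln3, while libraries 1 and 4 hold all members within 2.29 of their controls.

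The size of the gap between pools differed greatly from gene to gene. Library 3 exceeded library 1 by 22.8 times for Egln3, 8.40 times for Slc2a1, 6.67 times for Vegfa and 5.43 times for Adm. For the remaining members the ratio was 2.81 for Bnip3, 1.81 for Ankrd37, 1.42 for Epas1 and 1.19 for Hif1a. Over all genes, too, libraries 1 and 3 differed most among the pairs of libraries within a group. Against the mean of the controls, library 3 held 43.0 times the Egln3, 29.6 times the Slc2a1 and 11.6 times the Adm. Library 4, the pool with the most Hif1a, stood at 2.25 times the control mean for that gene and at 1.54 times for Adm. The pool with the most Hif1a mRNA was therefore not the pool with the most target mRNA.

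Other values moved with these pools. Within Isoflurane-Sepsis the share of reads outside genes was 23.1%, 24.04%, 25.4% and 24.5% in libraries 1 to 4, highest in library 3. The neutrophil and monocyte markers summed to 1425, 1259, 1416 and 2078 CPM in the same order, highest in library 4, although 6 of the 8 tested were individually highest in library 3. Most of each sum was Lcn2, which was itself highest in library 4. The 9 Kupffer cell and macrophage markers summed to 474, 423, 455 and 583 CPM, and 8 of the 9 were highest in library 4, as Hif1a was. Library 4 was also highest for 30.7% of all genes tested and for 42.1% of those called higher with sepsis. Hepatocyte markers ranged from 130844 CPM in library 2 to 151358 CPM in library 4. The 7 erythroid markers summed to 502, 416, 386 and 401 CPM in libraries 1 to 4, and all 5 tested were highest in library 1. The part of these in the order of the pools was not tested.

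The order of the members in the other groups was as follows. In Propofol-Sepsis library 10 was highest for 6 of the 8 members, all but Hif1a and Ankrd37, against 36.4% of all genes tested and 57.9% of those called higher. Its excess over the mean of the other septic propofol pools was 3.60 times for Egln3, 1.86 times for Slc2a1 and 1.85 times for Bnip3, but 1.13 times for Adm. Library 12 was lowest for 6 of the 8, against 22.4% of all genes tested. Among controls, library 7 was lowest for 5 of the 8 under isoflurane, against 32.2% of all genes tested, where its Egln3 was 0.312 of the mean of the other controls and its Slc2a1 0.383. Library 14 was lowest for 6 of the 8 under propofol, against 26.6% of all genes tested. The share of reads outside genes was also highest in library 10 within Propofol-Sepsis (23.3%), lowest in library 7 within Isoflurane-Control (22.4%) and lowest in library 14 within Propofol-Control (21.6%), and its part was not tested. The erythroid sum was highest in library 10 (556 CPM, all 5 tested markers highest there) and lowest in library 7 (384 CPM), but highest in library 14 (683 CPM). The part of that sum was not tested either.

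The order of the 4 groups was set out for each member, as a description that also crosses the anesthetics and the drugs used to start them. Isoflurane-Sepsis had the highest mean of all 8 members. Propofol-Sepsis came second for Hif1a, Adm, Egln3, Ankrd37, Bnip3 and Slc2a1, Isoflurane-Control second for Epas1 and Vegfa, and Propofol-Control was lowest for 6 members, with Isoflurane-Control lowest for Hif1a and Propofol-Sepsis for Vegfa. Of the 24 neighboring pairs in these orders the libraries of 15 overlapped. In the other 9 the exact two-sided permutation test gave 0.0286, the smallest p that 4 libraries against 4 allow, which is 0.0762 after adjustment over the 24. The pairs were formed by ranking the same values, and the share of such pairs over all genes was not worked out. These counts and p-values therefore only describe the order. The mean of Isoflurane-Sepsis was 13.8 times that of Propofol-Sepsis for Egln3 and 2.88 times for Adm, yet the libraries of both genes overlapped, because library 4 lay in the range of the septic propofol pools for both genes, and library 1 for Egln3.

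Whether sepsis acted differently under the 2 anesthetics was tested as an interaction term over the 16 libraries, as the rise under isoflurane minus that under propofol. None of the 8 members was called by edgeR, against 2.72% of 10621 genes (1.66% higher and 1.06% lower), while 2 of the 8 had an unadjusted p below 0.05. These were Vegfa, with a difference of 1.95 (SE 0.56, adjusted p = 0.0671), and Hif1a, with a difference of 0.57 (SE 0.164, adjusted p = 0.0671). DESeq2 called both (adjusted p = 0.0339 for Vegfa and 0.0220 for Hif1a), as did edgeR without library 1 (0.00731 and 0.0127) or without library 4 (0.0381 and 0.0389). Those fits also called more of all genes, at 8.17% with DESeq2, 15.1% without library 1 and 3.5% without library 4. For Adm the difference was 1.45 (adjusted p = 0.231), and it was 0.58 without library 3 and 0.01 without libraries 2 and 3. All 8 differences were above 0, with a median of 1.05 against -0.016 over all genes. Without libraries 2 and 3 those of Epas1 (-0.11), Egln3 (-1.05), Bnip3 (-0.21) and Slc2a1 (-0.31) were below 0. A p above the threshold does not show that the anesthetics act alike on these genes.

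**Figure D3:**
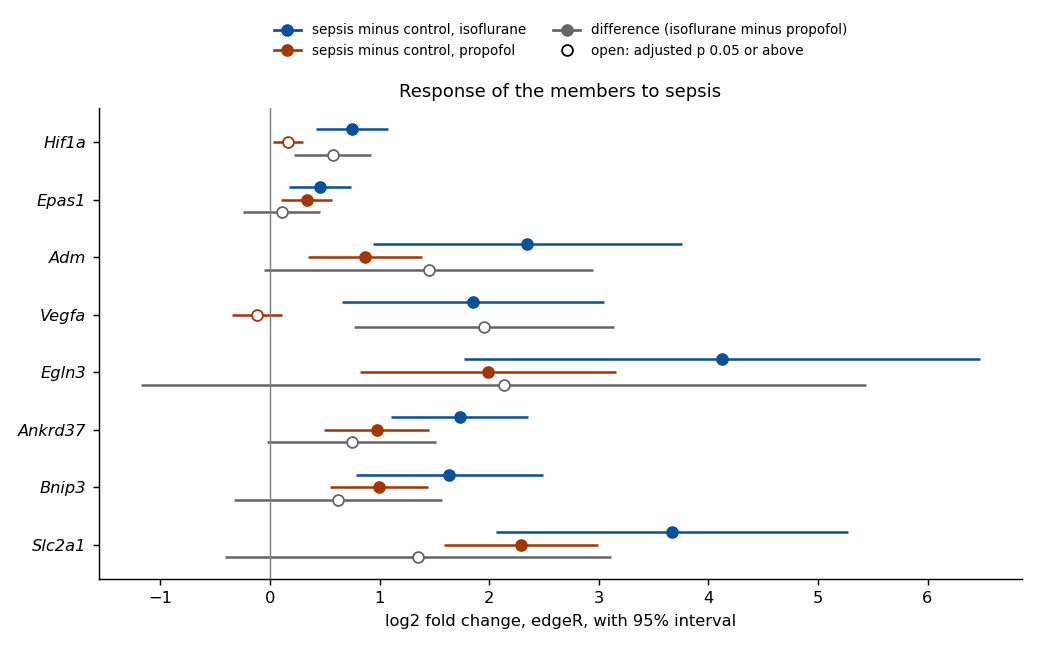
Log2 fold change of each member with its unadjusted 95% interval for sepsis against control under isoflurane, under propofol, and for their difference, with open points where the adjusted p is 0.05 or above. All 8 isoflurane points are filled, Hif1a and Vegfa are open under propofol, and the 8 differences lie between 0.11 and 2.13 with open points throughout.

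The partners and regulators of the alpha subunits were followed as a list of 15 genes, of which 12 could be tested under isoflurane and 11 under propofol. Under isoflurane 6 were called higher and 1 lower, with a median log2 fold change of 0.25, where 25.7% of all genes were called higher and 24.4% lower. Under propofol 5 were called higher and 1 lower, with a median of 0.18, where 20.4% of all genes were called higher and 21.7% lower. Vhl, the part of the ubiquitin ligase that recognizes hydroxylated HIF, rose by 1.07 (SE 0.119, adjusted p = 2.3e-04) under isoflurane and by 0.95 (SE 0.0941, adjusted p = 9.6e-05) under propofol. Its libraries were even, at 41.2, 48.5, 52.4 and 38.6 CPM in Isoflurane-Sepsis and 19.4 to 24.03 CPM in its controls. Hif1an, a hydroxylase that blocks the activity of HIF, rose by 0.53 (adjusted p = 0.00413) and 0.56 (adjusted p = 0.00163), and Egln2, another prolyl hydroxylase, by 0.29 under isoflurane (adjusted p = 0.00341). Cited2, which competes with HIF for its coactivators, rose by 1.07 under propofol (adjusted p = 2.98e-04). It was also called higher under isoflurane, at 177, 330, 644 and 154 CPM in Isoflurane-Sepsis and 107 to 126 CPM in its controls. Egln2 was also called higher under propofol. None of the 12 was called in the interaction by edgeR, 1 had an unadjusted p below 0.05, DESeq2 called 1, and edgeR without library 1 called 2. These counts are near the background, since DESeq2 called 8.17% of all genes and edgeR without library 1 called 15.1%.

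Glucose uptake and glycolysis genes known as HIF targets were a list of 21, of which 18 were tested. Under isoflurane 9 were called higher and none lower, with a median of 0.51, and under propofol 10 were called higher and 1 lower, with a median of 0.50. The number called in either direction under isoflurane was no larger a share of the list than the 50.0% of all genes called. All those of the list were higher, where 25.7% of all genes were called higher and 24.4% lower. Under propofol 42.1% of all genes were called, 20.4% higher and 21.7% lower. Hk2, a hexokinase that starts glycolysis, stood at 3.54, 6.90, 12.2 and 5.38 CPM in Isoflurane-Sepsis and between 1.19 and 1.46 CPM in its controls. It rose by 2.44 (SE 0.37, adjusted p = 9.1e-04), and under propofol by 1.60 (SE 0.229, adjusted p = 5.5e-04). Slc16a3, which exports lactate, rose by 3.78 (SE 0.656, adjusted p = 0.0018) under isoflurane, from 0.271 to 0.517 CPM in controls to 1.75, 4.32, 11.5 and 2.78 CPM. Its isoflurane controls held 40 reads in all, so Slc16a3 passed the limit on low counts through its septic libraries. Hk1 rose by 1.00 under isoflurane (adjusted p = 0.00209), and under propofol Pfkfb3, which makes an activator of glycolysis, rose by 1.25 (adjusted p = 6.2e-04) and Pgam1 by 0.39 (adjusted p = 0.00127). Hk2, Slc16a3, Hk1, Pfkfb3 and Pgam1 were each called higher under both anesthetics. In Isoflurane-Sepsis library 3 was highest for 15 of the 18 and the order of library 3 before library 2 was seen in 12, and in Propofol-Sepsis library 10 was highest for 16 of the 18. None of the 18 was called in the interaction by edgeR or DESeq2, and 2 had an unadjusted p below 0.05.

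Further genes widely used as hypoxia markers were a list of 37, of which 29 were tested under isoflurane and 28 under propofol. They were called higher in 18 cases and lower in 1 under isoflurane, with a median of 0.92, and higher in 12 and lower in 3 under propofol, with a median of 0.25. Over all genes 25.7% were called higher and 24.4% lower under isoflurane, and 20.4% and 21.7% under propofol. Nos2, the inducible nitric oxide synthase, was at 0.0929 to 0.354 CPM in Isoflurane-Control and at 3.39, 9.22, 14.2 and 6.46 CPM in Isoflurane-Sepsis, a rise of 5.07 (SE 0.544, adjusted p = 1.96e-04). Its controls held 28 reads in all under isoflurane and 17 under propofol. Nos2 thus passed the limit on low counts through its septic libraries and could hardly have been called lower. Plod2, which hydroxylates collagen, rose by 2.19 (adjusted p = 2.5e-04), while Igfbp3, a binding protein of insulin-like growth factors, fell by 0.90 (adjusted p = 8.8e-05). Under propofol Kdm3a, a histone demethylase, rose by 0.91 (adjusted p = 3.5e-04), and the adenylate kinase Ak4 fell by 1.45 (adjusted p = 1.7e-04). Nos2, Plod2 and Kdm3a were called higher and Igfbp3 lower under both anesthetics, while Ak4 was called under propofol alone. Library 3 was highest for 24 of the 29 and library 10 for 25 of the 28. Nos2 is also strongly induced by inflammatory signals.

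**Figure D4:**
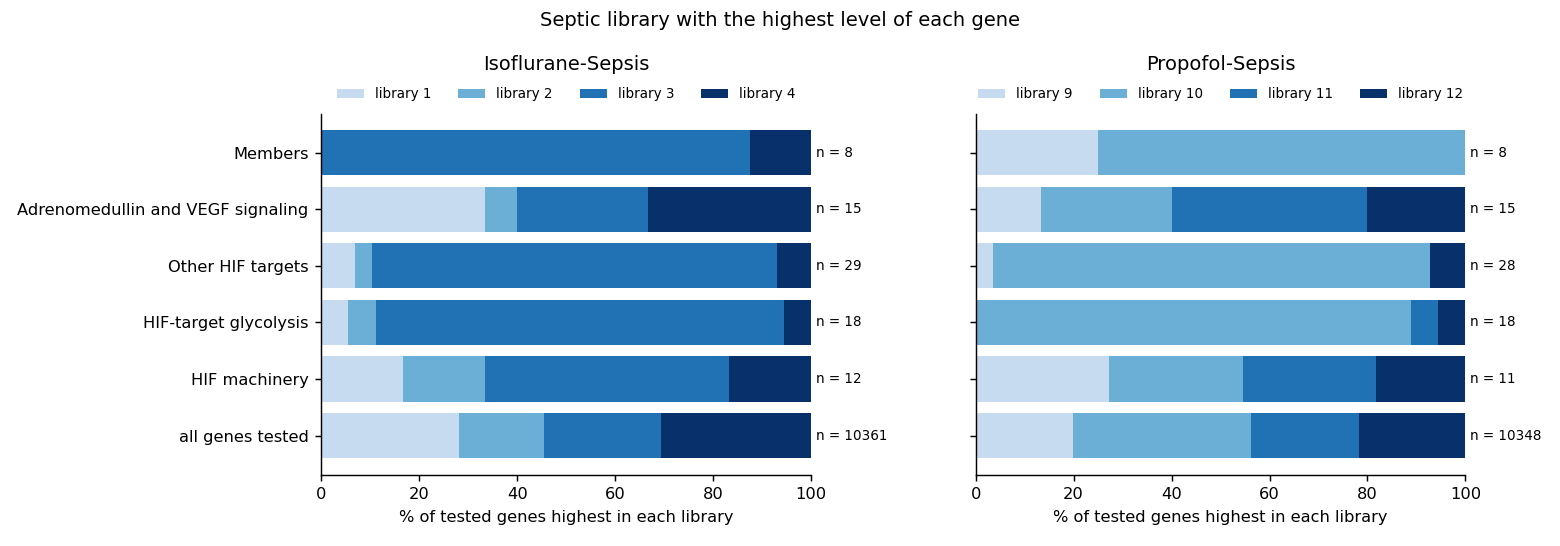
Share of the tested genes of each list whose highest septic level lay in each library, for Isoflurane-Sepsis and Propofol-Sepsis, with the number of genes at the right of each bar. Library 3 holds 87.5% of the members and library 10 holds 75%, against 23.8% and 36.4% of all genes tested.

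Whether the receptors for Adm and Vegfa moved along with their ligands was followed in a list of 20 genes, of which 15 were tested. Under each anesthetic 3 were called higher and 5 lower, namely Ramp3, Vegfb and Flt1 higher and Calcrl, Ramp1, Kdr, Flt4 and Nrp1 lower in both. The number called is close to the background, since 50.0% of all genes were called under isoflurane and 42.1% under propofol. The median log2 fold change was -0.15 under isoflurane and -0.27 under propofol. Calcrl, the receptor that binds adrenomedullin together with a RAMP protein, was among the genes that fell. Its log2 fold change was -0.56 under isoflurane (adjusted p = 0.0283) and -0.35 under propofol (adjusted p = 0.0317).

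The partners of Calcrl differed in direction. Ramp3 rose by 2.07 (adjusted p = 0.00247) under isoflurane and by 2.38 (SE 0.324, adjusted p = 4.3e-04) under propofol, although its level was low, at 0.549 to 0.932 CPM in Isoflurane-Sepsis and 0.047 to 0.229 CPM in Isoflurane-Control. Its controls held 19 reads in all under isoflurane and 12 under propofol. Ramp3 thus passed the limit on low counts only through its septic libraries and could hardly have been called lower, so its calls lend no support of their own. Ramp1 fell by 0.77 (adjusted p = 0.0372) and 0.93 (adjusted p = 0.00151). Ramp2, the partner that gives Calcrl its main preference for adrenomedullin in vessels, stood at 6.14, 3.09, 3.06 and 4.71 CPM in Isoflurane-Sepsis and 4.55 to 5.00 CPM in Isoflurane-Control and was called under neither anesthetic.

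For the VEGF family, Kdr, the main signaling receptor for Vegfa on endothelium, stood at 5.94, 5.03, 6.58 and 5.38 CPM in Isoflurane-Sepsis and at 21.3, 23.5, 32.8 and 26.1 CPM in Isoflurane-Control. It fell by 2.17 (SE 0.155, adjusted p = 4.0e-05), evenly over the pools, and under propofol it fell by 1.82 (SE 0.183, adjusted p = 1.0e-04). Flt4, the receptor of lymphatic vessel growth factors, fell by 0.96 under isoflurane (SE 0.126, adjusted p = 4.6e-04). Vegfb, a relative of Vegfa that binds Flt1, rose by 0.94 under isoflurane (SE 0.17, adjusted p = 0.00221), and Flt1, the receptor that also traps Vegfa, rose by 0.81 under propofol (SE 0.119, adjusted p = 6.3e-04). Under isoflurane the rise of Flt1 was 0.69 (adjusted p = 0.0136), with library 4 at 16.4 CPM inside the range of its controls. The 10 endothelial markers summed to 225 to 271 CPM in Isoflurane-Sepsis and 267 to 323 CPM in Isoflurane-Control, with 5 of the 10 called lower and none higher and none at 0. Under propofol they summed to 307 to 319 CPM with sepsis and 327 to 330 CPM without, with 2 called higher and 2 lower, and their part in the fall of the receptors was not tested. None of the 15 genes was called in the interaction by edgeR or DESeq2, 3 had an unadjusted p below 0.05, and edgeR without library 1 called 2. That last count is near the background, since the fit without library 1 called 15.1% of all genes.

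**Figure D5:**
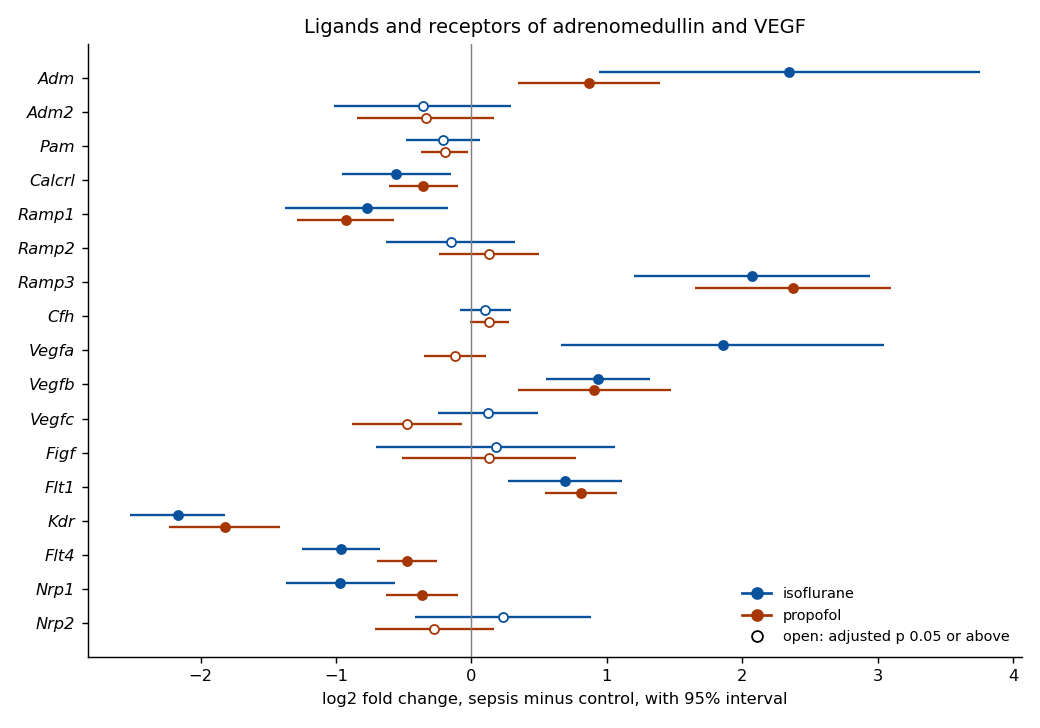
Log2 fold change of sepsis against control, with its unadjusted 95% interval, for Adm, Vegfa and the 15 tested genes of their signaling, in blue for isoflurane and red for propofol, with open points where the adjusted p is 0.05 or above. Ramp3, Vegfb and Flt1 lie to the right under both anesthetics, and Kdr lies farthest to the left at -2.17 and -1.82.

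The genes most like each member over all 16 libraries were looked up by the root mean square difference of z-scored log2 CPM, where 0 means the same pattern, among 8886 genes. For Adm they were Zfp592 (0.347), Bbc3 (0.362) and Ero1l (0.364). Ero1l, which forms disulfide bonds in the endoplasmic reticulum and is on the list of further hypoxia markers, averaged 109 ± 91.8 CPM in Isoflurane-Sepsis and 36.4 ± 2.94 CPM in Isoflurane-Control (SD, n = 4). For Bnip3 they were Trip10 (0.184), Pgam1 (0.192) and Pcsk6 (0.229), and for Egln3 they were Trip10 (0.231), Mib2 (0.259) and Pgam1 (0.285). For Slc2a1 they were Nup155 (0.234), Adamts9 (0.249) and Cdkn1a (0.260), for Ankrd37 Slc35f5 (0.258), Adamts9 (0.277) and Sipa1l3 (0.279), and for Epas1 Gxylt1 (0.216), Klf6 (0.219) and Midn (0.257). Among the members themselves the nearest pair was Egln3 and Bnip3 (0.246), followed by Ankrd37 and Slc2a1 (0.286), and Hif1a was at least 0.739 from every other member. All patterns share the 16 libraries and the 4 groups, and likeness here includes the rise with sepsis itself.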

How the data were processed

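Liver mRNA of 16 libraries in 4 groups was analysed. The authors deposited whole-number counts of reads per gene symbol, without normalization. The submitters' processing notes name STAR and build rn5 but give no version. The sources used here give neither the counting program nor the annotation. Libraries were made from polyadenylated RNA and kept the strand. Reads that fell outside genes (21.6% to 25.4% of reads) or were ambiguous (1.07% to 1.35%) entered neither library sizes nor tests.

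Sepsis was compared with control in separate fits per anesthetic, which share no library, with edgeR 4.0.16 in R 4.3.3 (quasi-likelihood test, TMM scaling, filterByExpr with a minimum count of 10 and total of 15), and the interaction in a fit of all 16. Adjusted p-values are Benjamini-Hochberg over all genes tested. CPM are TMM-scaled, and log2 CPM for patterns used a prior count of 2. The count tables of the isoflurane and propofol libraries carry different name prefixes, so levels were not tested between them outside the interaction, except as an order of groups. Pairs of libraries within a group differed by more than sampling noise, so none was counted as a repeat. The chi-square per degree of freedom ran from 3.35 for libraries 5 and 6 to 96.3 for libraries 1 and 3.

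Members and gene lists were chosen with earlier results of these data known. The text names every member, from each list the 3 genes with the smallest adjusted p among those called in a comparison, and the 3 genes most like each member called under both anesthetics, from genes whose log2 CPM averaged 1 or more. A gene under this rule is not reported here by name and remains in the counts. Calcrl, Ramp1, Ramp2, Nrp1 and Lcn2 and the values of Ramp3, Vegfb, Flt1 and Cited2 outside that rule were chosen after their values were seen. Pgam1 has near-identical copies in the genome and its counts are uncertain. The scripts were tested on simulated data. Alternatives were RLE size factors, library totals, DESeq2 1.42.0, limma-voom 3.58.1, other limits on low counts, thinned counts, 1 fit of all libraries, a threshold of 0.01 and leaving out each library. Leaving out Isoflurane-Sepsis libraries 2 and 3 together was added after seeing the data. Promoters are RefSeq sequence of GRCr8, whose table matched all 8 members, and no coordinate of the files' build is given.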

Additional observations from a re-analysis of the deposited data

Results flagged for a closer look

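For 2 genes on the list of further hypoxia markers the response to sepsis differed between the anesthetics in edgeR's interaction test. Hmox1, which breaks down heme, stood at 375, 1066, 2124 and 592 CPM in Isoflurane-Sepsis and at 257, 298, 144 and 320 CPM in Isoflurane-Control, and at 249, 339, 205 and 193 CPM in Propofol-Sepsis and 342, 590, 802 and 198 CPM in Propofol-Control. The difference of the log2 fold changes was 3.00 (SE 0.68, adjusted p = 0.0360), from 2.04 under isoflurane (adjusted p = 0.00999) and -0.98 under propofol (adjusted p = 0.0579). Tfrc, the receptor that takes up iron, stood at 104, 150, 280 and 142 CPM in Isoflurane-Sepsis and 61.3 to 76.5 CPM in Isoflurane-Control, and at 79.8 to 88.3 CPM and 60.4 to 93.0 CPM in the propofol groups. Its difference was 1.26 (SE 0.315, adjusted p = 0.0463), from 1.33 and 0.05. The number of genes of that list called in the interaction, 2 of 30 tested, ran from 0 to 5 over the fits that left out a library and was 0 with limma-voom. The share of all genes called was 2.72% in the main fit, ran from 0.504% to 15.1% over the fits that left out a library and was 2.14% with limma-voom.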

How the results depend on the processing

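Under isoflurane all alternatives but an adjusted p below 0.01, which left 4 of the 8 members called, gave 7 or 8, and so did leaving out each library (7 to 8). Under propofol, where 6 were called, that stricter threshold left 3, the fit of all 16 libraries gave 4, and leaving out each library gave 5 to 8, of which the 8 without library 10 included Vegfa as lower. In the interaction, where edgeR called 0, DESeq2 called 2, and leaving out each library gave 0 to 2, with 2 called without library 1 or library 4. The share of all genes called was 2.72% in the main fit, 8.17% with DESeq2, 15.1% without library 1 and 3.5% without library 4. The only signs that turned were in the interaction. The difference of Epas1 ran from -0.00915 (without library 3) to 0.18 when each library was left out, and without Isoflurane-Sepsis libraries 2 and 3 those of Epas1 (-0.11), Egln3 (-1.05), Bnip3 (-0.21) and Slc2a1 (-0.31) turned. The fit without both libraries has fewer samples, and the cause of the other changes was not tested. At an adjusted p below 0.01, 30.9% of all genes tested were called under isoflurane and 25.4% under propofol. There the calls fell to 3 of the HIF partners, 11 of the further markers and 5 of the ligand and receptor genes under isoflurane. Under propofol they fell to 5 glycolysis genes and 5 ligand and receptor genes. Glycolysis calls under propofol were 7 with limma-voom and without library 14 and 6 without library 15. Those fits called 41.7%, 33.5% and 36.8% of all genes, in that order. Ligand and receptor calls under isoflurane were 5 without libraries 2 and 3, where 42.0% of all genes were called. No paired analysis was possible because the groups share no replicate numbers. Adm, with 13 reads in its lowest library, and Egln3, with 8, had the fewest reads of the members, which limits the precision of their fold changes.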
